A study of Homo sapiens with 4 samples.

Results

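The 10 genes described here are SRF, its coactivator gene MRTFA, and 8 genes of the actin-based contractile machinery (ACTA2, TAGLN, CNN1, CNN2, MYL9, TPM1, TPM2 and TPM4). They were chosen by gene symbol, and all 10 were present among the 61228 features of the count files. The cells were H1792, a human lung cancer line labelled WT, and RNA was sequenced after 96 h with the solvent DMSO (2 libraries) or with ACBI1 (2 libraries). ACBI1 is a degrader that brings the SWI/SNF chromatin remodelling ATPases SMARCA2 and SMARCA4, and the subunit PBRM1, to a ubiquitin ligase. Its dose is labelled as 1 mM, a unit that the counts could not check, and no other allele or agent is named in the labels. All libraries came from 1 cell line, and the labels number the libraries as replicates without saying whether they came from separate cultures, so p-values measure only the spread between these libraries.

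SRF is a transcription factor that binds the CArG box, a run of A and T bases between CC and GG. It works with 2 kinds of partner. The MRTF coactivators are held by monomeric actin and move to the nucleus when actin polymerises, while the ternary complex factors of the ELK family respond to MAP kinase signalling. In smooth muscle and myofibroblasts, SRF with MRTF or myocardin drives genes for actin, tropomyosin, calponin and myosin light chains, and in other cells it drives the genes of the general actin cytoskeleton.

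The promoters below are shown because they carry the SRF element of the 3 members in which it was found. Beside them are TPM1, the member that fell, and FLNA, a related gene of the actin cytoskeleton that also fell. Promoter windows came from RefSeq (GRCh38.p14, 250 bases before to 50 after each annotated start), and 8 of the 10 genes had at least 1 window. TAGLN and MYL9 had no entry. Each line gives the stretch before the start that lies outside UTRs annotated in GENCODE 29, 5′ to 3′ on the gene's strand, with CArG boxes in capitals.
SRF (chr6:43171019-43171268, plus strand): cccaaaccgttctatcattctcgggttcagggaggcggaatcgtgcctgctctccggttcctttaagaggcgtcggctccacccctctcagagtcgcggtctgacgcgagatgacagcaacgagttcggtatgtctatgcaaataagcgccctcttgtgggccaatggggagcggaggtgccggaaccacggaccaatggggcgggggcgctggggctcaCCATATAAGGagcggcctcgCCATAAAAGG
CNN2 (chr19:1026358-1026580, plus strand): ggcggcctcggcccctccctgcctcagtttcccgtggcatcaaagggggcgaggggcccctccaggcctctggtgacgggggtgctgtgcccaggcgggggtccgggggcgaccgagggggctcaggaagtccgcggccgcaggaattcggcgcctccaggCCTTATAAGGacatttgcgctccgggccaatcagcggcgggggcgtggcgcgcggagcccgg
TPM4 (chr19:16067307-16067506, plus strand): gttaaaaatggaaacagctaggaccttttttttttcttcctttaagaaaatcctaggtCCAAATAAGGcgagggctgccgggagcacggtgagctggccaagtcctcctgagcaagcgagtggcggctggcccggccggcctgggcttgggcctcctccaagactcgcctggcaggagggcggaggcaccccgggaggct
TPM1 (chr15:63048239-63048438, plus strand): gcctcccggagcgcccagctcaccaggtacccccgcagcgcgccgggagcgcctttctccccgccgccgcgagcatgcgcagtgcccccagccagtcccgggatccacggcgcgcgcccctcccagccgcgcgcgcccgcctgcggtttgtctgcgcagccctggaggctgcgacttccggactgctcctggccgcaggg
FLNA (chrX:154374639-154374884, minus strand): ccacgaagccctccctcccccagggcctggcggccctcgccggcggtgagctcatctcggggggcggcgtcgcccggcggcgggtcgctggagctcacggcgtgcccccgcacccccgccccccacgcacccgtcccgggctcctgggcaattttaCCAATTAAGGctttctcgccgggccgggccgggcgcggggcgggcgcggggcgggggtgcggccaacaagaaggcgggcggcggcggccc
The first of the SRF windows held 2 CArG boxes, which began 30 and 10 bases before the start. The box of CNN2 began 89 bases before the start, that of TPM4 173 bases before 1 of its 3 annotated starts, and that of FLNA 94 bases before. The CArG pattern reads the same on both strands, so 1 scan covered both, and no other motif was searched. No exact CArG box was in the windows of MRTFA, ACTA2, CNN1, TPM1 or TPM2, which says only that these letters are not there. TPM1 had 1 window, which lies inside the gene as GENCODE 29 annotates it (window from 63048239, gene from 63042632), so its outermost start was not scanned. The same holds for the 3 windows of TPM4 (first window from 16067288, gene from 16067021). Of all 35116 windows of the same length, 1.29% held the box.

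Gene-assigned counts were 64281850 to 86010100 per library. Levels of 5 epithelial markers were examined, but no lung-specific gene, so the lung cancer label itself was not checked. KRT7, KRT8 and KRT18 were abundant, EPCAM was at 2.78 to 15.6 CPM, and CDH1, which encodes E-cadherin, had 4 to 16 counts per library. CPM are counts per 1000000 after TMM scaling of library sizes. None of the transcripts of SMARCA2, SMARCA4 and PBRM1 passed edgeR's quasi-likelihood test (adjusted p 0.163, 0.0583 and 0.734, 1 of 3 at an unadjusted p under 0.05), whereas DESeq2 and limma-voom called SMARCA4 higher (adjusted p 0.0149 and 0.0491). Over all alternatives the adjusted p of SMARCA4 lay between 0.00248 and 0.205. Transcript levels do not measure degradation of these proteins.

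With ACBI1 the transcript of SRF itself rose, that of TPM1 fell, and the other members tested did not pass the threshold. Of 19159 genes tested, 17.4% were called at an edgeR adjusted p under 0.05 (6.75% higher and 10.6% lower). Lower genes were 61.2% of these calls, or 51.5% under scaling by library size only, which moved the median log2 change of all genes from 0.01 to 0.09. Among the 10 members, 9 passed the filter on low counts, 1 was called higher and 1 lower, which is 2 of 9 beside that background. The median log2 change of the 9 was -0.42, beside 0.01 over all tested genes. Both ACBI1 libraries lay above both DMSO libraries for 1 of the 9 (31.1% of all tested genes) and below them for 4 (32.2% of all tested genes). The plot of CPM by library shows all 10 genes. In bulk RNA, fewer cells of a type and less RNA per cell cannot be told apart.

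**Figure D1:**
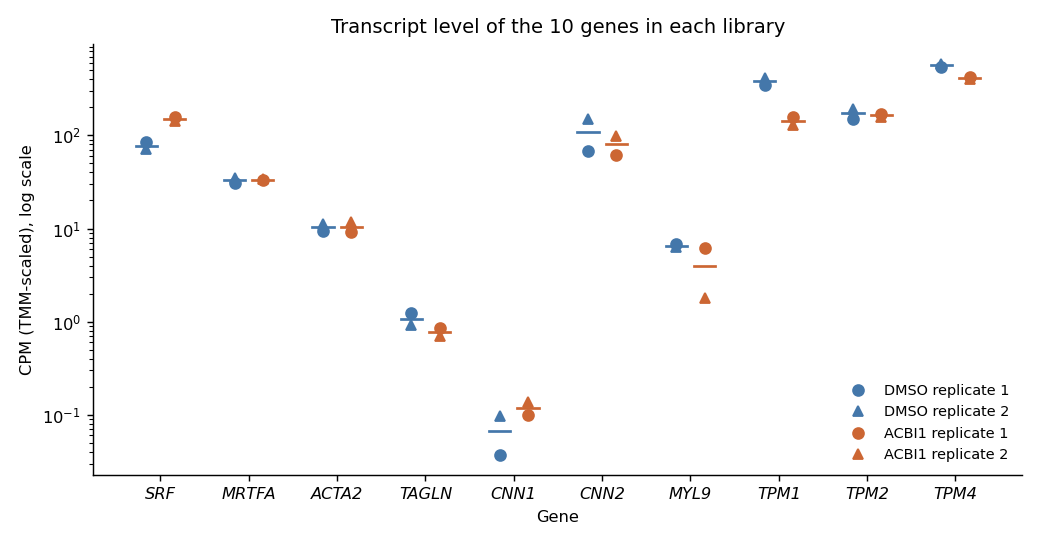
Transcript level of each gene (CPM after TMM scaling, logarithmic axis) in the 2 DMSO libraries (blue) and the 2 ACBI1 libraries (orange), with circles for replicate 1, triangles for replicate 2 and bars for group means. SRF lies higher and TPM1 lower in both ACBI1 libraries, while the ACBI1 replicates of MYL9 (6.17 and 1.82 CPM) and the DMSO replicates of CNN2 (67.3 and 149 CPM) lie far apart.

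SRF, on chromosome 6 (43171299 to 43181507, GENCODE 29 on GRCh38), was at 83.9 and 70.7 CPM in DMSO replicates 1 and 2 and at 156 and 141 CPM in ACBI1 replicates 1 and 2. Both ACBI1 libraries were well above both DMSO libraries, and the replicates of a group were close. The group means were 77.3 ± 9.33 and 148 ± 10.5 CPM (SD, n = 2). The rise was 1.92-fold, 0.94 on the log2 scale (SE 0.17), with an edgeR adjusted p of 0.0182. These values rested on 11922 and 23198 counts, and no exon of another gene overlapped SRF. When single libraries were omitted, the SRF change stayed between 0.82 and 1.07 on the log2 scale and its edgeR adjusted p between 0.00665 and 0.0844. The call was lost without ACBI1 replicate 1 (log2 change 0.88, adjusted p 0.0844), and in such a fit the lone library of a group is assumed to vary like the other group.

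MRTFA, on chromosome 22 (40410281 to 40636702), encodes the coactivator that ties SRF to the state of actin. It was at 30.9 and 35.1 CPM with DMSO and at 33.2 and 34.0 CPM with ACBI1, so the ACBI1 libraries lay within the DMSO range. Its log2 change was 0.03 (SE 0.16, edgeR adjusted p 0.927). The number of SRF counts per MRTFA count was 2.72 and 2.02 with DMSO and 4.70 and 4.15 with ACBI1. This within-library ratio does not depend on scaling, and did not overlap between groups. For such single values the smallest two-sided p of an exact permutation test is 0.333 with 2 libraries in each group, so none was run.

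The partners of SRF outside the 10 genes were also measured. MRTFB, the close relative of MRTFA, was at 27.9 and 38.9 CPM with DMSO and at 28.3 and 34.2 CPM with ACBI1, and the groups overlapped. Its log2 change was -0.09 (edgeR adjusted p 0.802). MYOCD, which encodes myocardin, the coactivator of the smooth muscle lineage, had 1 count in ACBI1 replicate 2 and 0 in the other libraries, where a count of 0 allows up to 3 counts (counting error only). The ternary complex factor genes ELK1, ELK3 and ELK4 had log2 changes of -0.16, 0.42 and 0.22 (edgeR adjusted p 0.504, 0.161 and 0.392). Of these 5 SRF cofactors, 4 were tested and 0 were called by edgeR, DESeq2 or limma-voom, with 0 at an unadjusted edgeR p under 0.05. Over all 19159 tested genes, edgeR called 17.4%, and 6490 had an unadjusted p under 0.05. ELK3 lay higher in both ACBI1 libraries than in both DMSO libraries. With the replicate number added to the edgeR fit, ELK3 was called higher (adjusted p 0.0290), as were 41.3% of all tested genes in either direction.

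Tropomyosins are coiled-coil proteins that lie along actin filaments and set which myosins and other proteins bind them. TPM1, on chromosome 15 (63042632 to 63071915), was at 350 and 409 CPM in DMSO replicates 1 and 2 and at 159 and 130 CPM in ACBI1 replicates 1 and 2. Every ACBI1 value was below every DMSO value, by more than the spread within either group. The group means were 379 ± 42.0 and 144 ± 20.3 CPM (SD, n = 2). TPM1 was 2.63-fold lower with ACBI1, -1.40 on the log2 scale (SE 0.19), with an edgeR adjusted p of 0.00868. TPM1 remained called with any of the 4 libraries left out (log2 change -1.54 to -1.27, edgeR adjusted p 0.000532 to 0.0386). Other genes on the opposite strand cover 21.4% of its exonic length. One of them, TPM1-AS, had 13 to 31 counts per library, against 8512 to 29419 for TPM1. Counts of the other, AC079328.2, were not examined. Without a stated strand setting, TPM1 reads in that overlap may have been assigned wrongly or dropped. The low TPM1-AS counts do not settle this.

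TPM4, on chromosome 19 (16067021 to 16103005), was the most abundant of the 10 genes in CPM. It was at 541 and 590 CPM with DMSO and at 427 and 408 CPM with ACBI1. The groups did not overlap, but the test did not pass (log2 change -0.44, SE 0.17, edgeR adjusted p 0.126). TPM2, on chromosome 9 (35681992 to 35690121), was at 151 and 193 CPM with DMSO and at 171 and 158 CPM with ACBI1. Its groups overlapped, and its log2 change was -0.07 (SE 0.19, edgeR adjusted p 0.837), or 0.02 under scaling by library size only. TPM3, a tropomyosin gene outside the 10, had a log2 change of 0.25 (SE 0.22, edgeR adjusted p 0.479).

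TPM1 took a smaller share of the tropomyosin pool in both ACBI1 libraries than in both DMSO libraries. Per kilobase of exon, TPM1 made up 16.1% and 17.3% of the summed level of the 4 tropomyosin genes with DMSO, and 8.15% and 7.45% with ACBI1. TPM3 made up 19.1% and 12.9% with DMSO and 24.4% and 21.7% with ACBI1. The share of TPM2 was 27.6% and 32.5% against 34.7% and 36.0%, and that of TPM4 was 37.2% and 37.3% against 32.7% and 34.9%. The shares of a library sum to 100%, so a lower share of 1 gene raises those of the others, and the CPM of TPM2 and of TPM3 overlapped between groups. In counts, 2.31 and 2.11 TPM1 reads were listed for each TPM2 read with DMSO, and 0.929 and 0.820 with ACBI1. Lengths were the union of all annotated exons, which is long for TPM1 (12876 bases) because it has many isoforms, so its level per length is a low estimate, and the counts sum over its isoforms.

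**Figure D2:**
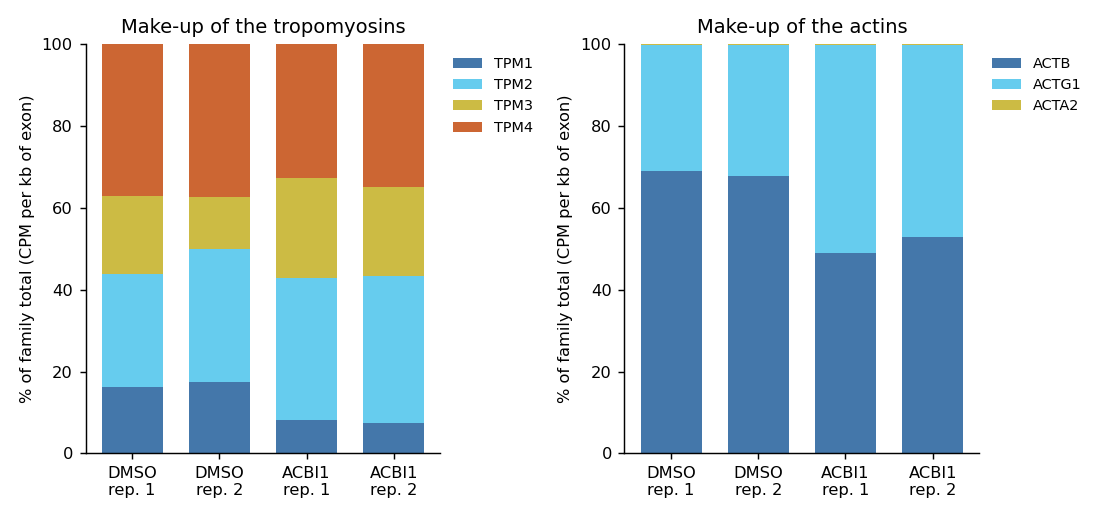
Share of each gene in the summed level of its family (CPM per kilobase of exon, in percent) in each of the 4 libraries, for 4 tropomyosin genes (left) and for actin genes (right). TPM1 goes from 16.1% and 17.3% with DMSO to 8.15% and 7.45% with ACBI1, and ACTG1 from 30.7% and 32.0% to 51.0% and 46.9%, while ACTA2 is too small a share to be seen.

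ACTA2, on chromosome 10 (88935074 to 88991339), encodes the actin of smooth muscle and myofibroblasts. It was at 9.39 and 11.2 CPM with DMSO and at 9.18 and 11.7 CPM with ACBI1, and the groups overlapped. Its log2 change was 0.02 (SE 0.24, edgeR adjusted p 0.971), between -0.17 and 0.19 with 1 library left out. Exons of FAS and ACTA2-AS1 on the other strand overlap 30.1% of its exonic length. FAS was at 10.2 to 16.4 CPM, close to ACTA2 itself, so that without a stated strand setting some ACTA2 reads may have been assigned wrongly or dropped.

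The cytoplasmic actins made up nearly all actin counts. ACTB was at 2485 and 3875 CPM with DMSO and at 3104 and 3278 CPM with ACBI1, a log2 change of 0.01 (SE 0.26, edgeR adjusted p 0.991) that ran from -0.28 to 0.36 with 1 library left out. ACTG1 was at 941 and 1559 CPM with DMSO and at 2755 and 2475 CPM with ACBI1, a log2 change of 1.07 (SE 0.28, edgeR adjusted p 0.0481). The ACTG1 call was lost without ACBI1 replicate 1 (adjusted p 0.147) and without ACBI1 replicate 2 (adjusted p 0.0948), and the 4 such fits gave 0.00106 to 0.147. Within a library, 0.379 and 0.402 ACTG1 reads were listed per ACTB read with DMSO and 0.887 and 0.755 with ACBI1, and the ratio in each ACBI1 library exceeded that in each DMSO library. The coding sequences of ACTB and ACTG1 are similar, so some reads can be lost or shared between them. The ACTG1 promoter window also held a CArG box.

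TAGLN, on chromosome 11 (117199321 to 117204782), encodes transgelin, a small actin-binding protein of smooth muscle. It had 100, 67, 76 and 46 counts in DMSO replicates 1 and 2 and ACBI1 replicates 1 and 2, or 1.23, 0.931, 0.849 and 0.702 CPM. Its ACBI1 values lay just below its DMSO values, and it was not called (log2 change -0.48, SE 0.37, edgeR adjusted p 0.420). Exons of PCSK7 on the other strand overlap 11.4% of its exonic length, and PCSK7 was at 36.1 to 55.6 CPM. Some TAGLN reads may thus also have been assigned wrongly or dropped. TAGLN2, the paralogue found widely outside muscle, was at 606 and 795 CPM with DMSO and at 218 and 253 CPM with ACBI1. TAGLN2 was far above TAGLN in every library, and it fell, with a log2 change of -1.57 (SE 0.21, edgeR adjusted p 0.00817). It remained called with any library left out (adjusted p 0.000138 to 0.0388). TAGLN3 had 0 to 5 counts per library.

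Calponins bind actin and restrain the myosin motor. CNN1, the smooth muscle form on chromosome 19 (11538717 to 11550323), had 3, 7, 9 and 9 counts and was the member that did not pass the filter on low counts. That is 0.0368 to 0.137 CPM, and no change could be judged. CNN2, also on chromosome 19 (1026581 to 1039068), is the form found in many cell types. It was at 67.3 and 149 CPM in DMSO replicates 1 and 2 and at 62.3 and 99.2 CPM in ACBI1 replicates 1 and 2, so DMSO replicate 2 stood 2.22-fold above DMSO replicate 1 and the groups overlapped. Its log2 change was -0.42 (SE 0.40, edgeR adjusted p 0.510). It was -0.88 without DMSO replicate 1, where it was called (adjusted p 0.0312), 0.26 without DMSO replicate 2 and -0.12 without ACBI1 replicate 1 (adjusted p 0.0312 to 0.905 over the 4 libraries left out). CNN3, the remaining calponin gene, was at 88.2 and 132 CPM with DMSO and at 89.8 and 112 CPM with ACBI1 (log2 change -0.13, edgeR adjusted p 0.752), and like CNN2 it was higher in the replicate 2 library of each group. The summed level of 5 fibroblast markers (mostly COL1A1) was also higher in replicate 2, at 754 against 343 CPM with DMSO and 213 against 63.5 CPM with ACBI1, and its part in the CNN2 values was not tested.

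MYL9, on chromosome 20 (36541484 to 36551447), encodes a regulatory myosin light chain whose phosphorylation triggers contraction. It was at 6.77 and 6.37 CPM with DMSO, and at 6.17 and 1.82 CPM in ACBI1 replicates 1 and 2. ACBI1 replicate 1 was close to the DMSO libraries, and ACBI1 replicate 2 was 3.40-fold below its own replicate. The log2 change was -0.71 (SE 0.55, edgeR adjusted p 0.410). It was -1.85 without ACBI1 replicate 1, where MYL9 was called (adjusted p 0.0457), and -0.10 without ACBI1 replicate 2 (adjusted p 0.0457 to 0.898 over the 4 libraries left out). Its paralogues MYL12A and MYL12B had more reads, at 84.6 ± 3.34 and 115 ± 4.10 CPM in DMSO libraries and 104 ± 5.79 and 162 ± 13.7 CPM in ACBI1 libraries (SD, n = 2). Their log2 changes were 0.30 and 0.49 (edgeR adjusted p 0.221 and 0.0878), and both were slightly higher in the ACBI1 libraries without passing the threshold.

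**Figure D3:**
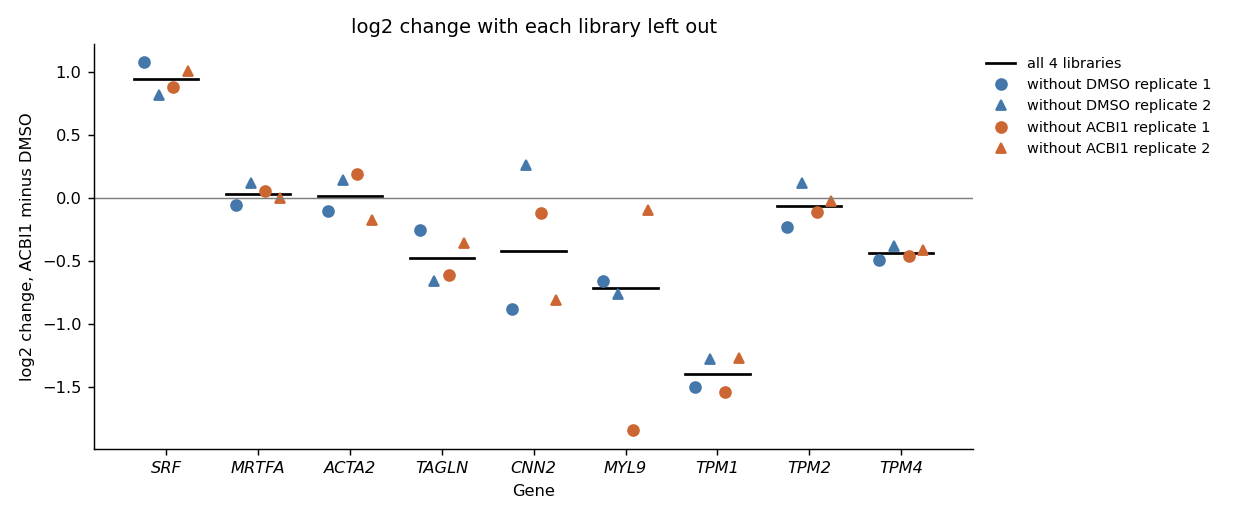
Fitted log2 change of each of the 9 tested genes (ACBI1 minus DMSO) with all 4 libraries (black bar) and with each library left out (blue for a DMSO library, orange for an ACBI1 library, circle for replicate 1 and triangle for replicate 2). SRF and TPM1 keep their sign, at 0.82 to 1.07 and -1.54 to -1.27, whereas MYL9 runs from -1.85 to -0.10 and CNN2 from -0.88 to 0.26.

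Per kilobase of exon, the order of the 10 genes in the DMSO libraries was TPM4 (65.5 CPM per kilobase), TPM2 (53.0), CNN2 (29.7), TPM1 (29.5), SRF (18.4), MRTFA (5.05), ACTA2 (3.46), MYL9 (2.33), TAGLN (0.276) and CNN1 (0.0232). The values of CNN2 overlapped those of its neighbour TPM1 and of SRF, and no other neighbours overlapped. With ACBI1 the order began with TPM2 (50.6 CPM per kilobase) and TPM4 (48.3), which overlapped, then SRF (35.3), CNN2 (22.2), TPM1 (11.2), MRTFA (5.14), ACTA2 (3.50), MYL9 (1.41), TAGLN (0.198) and CNN1 (0.0412), with no overlap between those neighbours. On this scale SRF thus stood above TPM1 in both ACBI1 libraries and below it in both DMSO libraries. In CPM, which are not divided by length, SRF and TPM1 were at 156 and 159 in ACBI1 replicate 1. In ACBI1 replicate 2 they were at 141 and 130 CPM. The order per kilobase depends on the exon union, which is long for TPM1 (12876 bases). In CPM, TPM4 was above TPM2 in every library. ACTA2, MYL9, TAGLN and CNN1, which are typical of smooth muscle, were the lowest in both groups.

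Related genes were taken from 5 lists of 54 genes in all, of which 44 could be tested. Of these, 1 was called higher and 11 lower, and the median log2 change was -0.33, beside 6.75% higher, 10.6% lower and a median of 0.01 over all tested genes. Each list below is to be read against the same background, and the lists were chosen with earlier results of these data known. The largest list holds 21 actin cytoskeleton genes known as MRTF-SRF targets, all of which were tested: 1 was called higher (ACTG1) and 6 lower, and their median log2 change was -0.31. PDLIM7, a scaffold protein of stress fibres, fell from 101 and 83.8 CPM to 28.1 and 25.4 CPM, a log2 change of -1.79 (edgeR adjusted p 0.00384). MICAL2, an enzyme that oxidises nuclear actin and thereby favours MRTF entry, fell from 448 and 441 CPM to 137 and 151 CPM, a log2 change of -1.62 (edgeR adjusted p 0.00431). TGFB1I1, a focal adhesion adaptor with a CArG box in 1 of its promoter windows, fell from 30.3 and 33.7 CPM to 12.5 and 11.9 CPM, a log2 change of -1.39 (edgeR adjusted p 0.00700). All 3 remained called with any library left out (adjusted p at most 0.0300). FLNA, which encodes the actin crosslinker filamin A, fell from 2629 and 2303 CPM to 1049 and 1115 CPM, a log2 change of -1.19 (edgeR adjusted p 0.0123). The FLNA call was lost when ACBI1 replicate 1 (adjusted p 0.0719) or ACBI1 replicate 2 (0.0517) was omitted, and the lowest of the 4 values was 0.00132.

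SRF also drives immediate early genes together with the ternary complex factors. All 9 genes of this list were tested, 4 were called lower and 5 were not called, and the median log2 change was -1.01. Over all tested genes, 10.6% were called lower. At an unadjusted edgeR p under 0.05 there were 7 of the 9, beside 6490 of all 19159 genes, and DESeq2 called 7 lower, beside 2604 of all genes. At an edgeR threshold of 0.01, 0 of the list were called lower, beside 611 of all genes. The log2 change was negative for 8 of the 9 and positive for FOSB (0.31, edgeR adjusted p 0.611). All genes of the list but EGR2 and MCL1 were higher in replicate 2 than in replicate 1 of each group. FOS, for example, was at 278 and 753 CPM with DMSO and at 143 and 452 CPM with ACBI1, so its groups overlapped. EGR3 fell from 5.04 and 10.6 CPM to 1.01 and 1.40 CPM, a log2 change of -2.70 (SE 0.45, edgeR adjusted p 0.0151), and remained called with any library left out (adjusted p 0.000107 to 0.0482). EGR2 fell from 7.28 and 19.6 CPM to 2.59 and 2.50 CPM, a log2 change of -2.40 (edgeR adjusted p 0.0251). It was -1.52 without DMSO replicate 2, and its call was lost without ACBI1 replicate 1 (adjusted p 0.0674) or ACBI1 replicate 2 (0.0572), with 3.01e-05 as the lowest of the 4. EGR1 fell from 1534 and 1883 CPM to 712 and 805 CPM, a log2 change of -1.17 (edgeR adjusted p 0.0155, from 0.00127 to 0.0869 with 1 library left out, the latter without ACBI1 replicate 1). MCL1 had a log2 change of -0.78 (edgeR adjusted p 0.0435), and its call was lost without DMSO replicate 1 (adjusted p 0.0593), ACBI1 replicate 1 (0.249) or ACBI1 replicate 2 (0.0797), with 0.0331 as the lowest. Windows of EGR1 and EGR2 held CArG boxes.

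**Figure D4:**
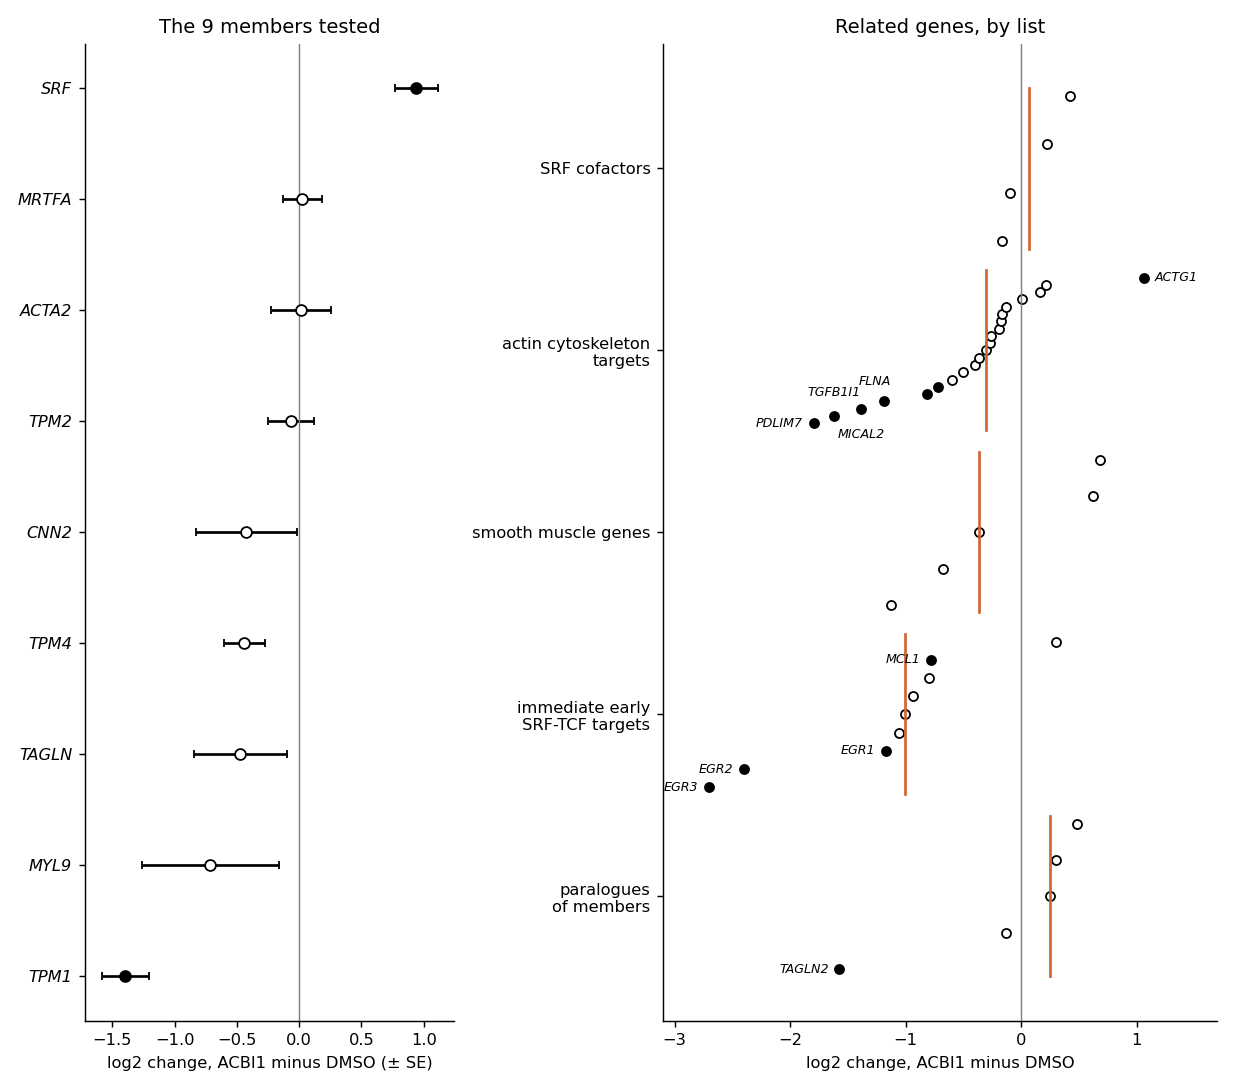
Left, log2 change (ACBI1 minus DMSO) with its SE for the 9 tested genes; right, log2 changes of the related genes in 5 lists, each with its median as an orange line. Filled points have an edgeR adjusted p under 0.05, and the called genes that the text describes carry their names. SRF (0.94) and ACTG1 (1.07) lie to the right of 0, and TPM1 (-1.40), PDLIM7 (-1.79), TAGLN2 (-1.57) and EGR3 (-2.70) to the left.

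Genes of differentiated smooth muscle were mostly below the filter. Of 13, 5 were tested, and the other 8 (ACTG2, MYH11, DES, ACTC1, ACTA1, PLN, KCNMB1 and JPH2) had at most 10 counts in any library. None of the 5 was called by edgeR, DESeq2 or limma-voom, with 1 at an unadjusted edgeR p under 0.05. CArG boxes were in the promoter windows of 8 of 20 actin cytoskeleton genes, 4 of 11 smooth muscle genes and 2 of 7 immediate early genes with a window. Among tested genes with a window, 190 of 12359 held the box, of which 17 were called higher and 34 lower. That is 26.8% called, beside 19.5% of all tested genes with a window, a difference that was not tested. Among the members and related genes, boxes were thus present in genes that rose (SRF, ACTG1) and in genes that fell (FLNA, TGFB1I1, EGR1, EGR2). They were also present in tested genes that did not pass the threshold (CNN2, TPM4, MYLK, ACTN1, FHL1, FHL2, LPP and SMTN).

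Markers of other cell types were measured beside these genes. Their calls are to be read against the 10.6% of all tested genes that were called lower. Of 5 smooth muscle and pericyte markers, 3 were tested and 1 was called lower, with a summed level of 99.8 and 89.2 CPM with DMSO and 43.1 and 37.3 CPM with ACBI1, and MYH11 and DES had at most 10 counts. Of 5 fibroblast markers, 4 were tested and 3 were called lower, with sums of 343 and 754 CPM against 63.5 and 213 CPM, and the fibroblast marker THY1 had 0 or 1 count. Endothelial markers summed to 12.6 and 48.5 CPM with DMSO and to 0.0112 and 0.0458 CPM with ACBI1, with 2 of 3 called lower, and leukocyte markers to at most 0.125 CPM. Single genes carried these sums: PECAM1 was 12.2 and 48.1 CPM of the endothelial sum with DMSO, COL1A1 324 and 693 CPM of the fibroblast sum, and CSPG4 83.6 and 50.3 CPM of the smooth muscle and pericyte sum. Of the 5 epithelial markers, 4 were tested and 3 were called lower, with sums of 978 and 1030 CPM against 322 and 201 CPM. Most of the DMSO sums was KRT7 (678 and 680 CPM), and EPCAM went the other way without passing the threshold, from 5.38 and 2.78 CPM to 15.6 and 4.84 CPM (log2 change 1.32, edgeR adjusted p 0.179). The part of these shifts in the changes of TPM1, the actin genes and the immediate early genes was not tested.

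The genes most alike in pattern were sought by the distance between log2 CPM centred over the 4 libraries, among 11159 other genes whose mean reached 5 CPM. Nearest to SRF were GCLM (distance 0.0379, log2 change 0.91), GNPDA1 (0.0462, log2 change 0.91) and MMS22L (0.0522, log2 change 0.99). Nearest to TPM1, the member with the smallest adjusted p, were CD58 (distance 0.0738, log2 change -1.46), HBP1 (0.0899, log2 change -1.47) and KRT8 (0.0944, log2 change -1.42). These distances rest on 4 libraries only.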

How the data were processed

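RNA-seq counts of H1792 cells were analysed in 4 libraries, 2 with DMSO and 2 with ACBI1, grouped by their titles. The deposited values are raw counts of reads per gene symbol, not normalized, in htseq-count layout. The submitters' processing notes name TopHat2 2.1.1, HTSeq 0.11.0 and hg38. The annotation and strand setting are not given in the sources used here, and the labels' protocols name a DNA library kit for these RNA samples. The 5 lines for reads given to no gene, 13.9% to 15.4% of listed reads, were left out of library sizes and tests.

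All 61228 features entered filterByExpr (at least 10 counts, 15 in total), leaving 19159 genes. After TMM scaling, the quasi-likelihood test of edgeR 4.0.16 (R 4.3.3, two-sided) was fitted on treatment alone, with Benjamini-Hochberg adjustment over all tested genes and a threshold of 0.05. Each SE is the size of the log2 change over the root of its F statistic. DESeq2 1.42.0, limma-voom (limma 3.58.1), other scalings and filters, a replicate block, a threshold of 0.01 and the omission of each library were alternatives. Scripts were tested on simulated data. Exon lengths and overlaps came from GENCODE 29, matched by symbol. The genes and lists were chosen with earlier results of these data known, and 1 list is not reported here. Named were the 10 genes, all SRF cofactors, paralogues and degrader targets, ACTB, ACTG1, and from the other lists up to 4 called genes in each direction, taken by size of change. For SRF and for the member with the smallest adjusted p, the 3 genes nearest in log2 CPM centred over the libraries (prior count 2, mean CPM of at least 5) were also named. Tested list genes with a CArG box, and FOS and FOSB, were named too.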

Additional observations from a re-analysis of the deposited data

How the results depend on the processing

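Across all genes, 1294 were called higher and 2037 lower (61.2% lower); under scaling by library size only, 1755 and 1866 (51.5% lower). With no filter beyond 1 count 2202 were higher and 3316 lower, at a threshold of 0.01 172 and 611, and with the replicate number as a replicate block 3708 and 4201. With each library left out, calls ranged from 415 to 1651 higher and from 964 to 2641 lower, with both minima without ACBI1 replicate 1. Among the 10 genes, 1 higher and 1 lower held under other scalings, filters, DESeq2 and limma-voom. At 0.01 the calls were 0 higher and 1 lower. With each library left out, there were 0 to 1 higher and 1 to 2 lower. Of the 54 related genes, 1 was called higher and 11 lower, or 2 and 16 with no filter, 0 and 4 at 0.01, and 0 to 1 and 5 to 14 with each library left out. The ACTG1 to ACTB ratio exceeded that with DMSO by 0.431 (0.365 to 0.497 with each library left out), and the TPM1 share of tropomyosin per kilobase differed by -8.92 percentage points (-9.53 to -8.32).

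Replicate numbers are shared between the groups, but the labels do not say that a number marks a batch or day. Over genes, deviations of same-numbered libraries from their group means had a correlation of 0.442. With the replicate block, 41.3% of all tested genes were called, 3708 higher and 4201 lower. Beside that share, 1 of the 10 genes was called higher and 3 lower, TPM4 (edgeR adjusted p 0.0318) and MYL9 (0.0472) beside TPM1. Among related genes, 4 were called higher and 19 lower. Low counts kept CNN1 from being tested, and each group has only 2 libraries.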
